A study of Caenorhabditis elegans with 16 samples.

Results

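The insulin and TOR signaling genes of *C. elegans* were described here by the accessible chromatin at 10 genes, *daf-2*, *age-1*, *daf-18*, *pdk-1*, *akt-1*, *akt-2*, *daf-16*, *let-363*, *daf-15* and *rsks-1*. An accessible region, or peak, was assigned to a gene when it overlapped the gene body or the 1 kb upstream of it in the Ensembl annotation of the WBcel235 genome. This gave 67 of the 29131 peaks of the study, and no peak fell to more than 1 of the 10 genes. The number of peaks was 18 at *daf-16*, 11 at *daf-2*, 8 at *akt-1*, 7 at *daf-18*, 6 at *pdk-1*, 5 at *akt-2*, 4 at *age-1*, 4 at *let-363*, 3 at *daf-15* and 1 at *rsks-1*. All 67 peaks passed the filter on low counts.

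In *C. elegans*, insulin-like peptides act on the receptor DAF-2, which signals through the phosphoinositide 3-kinase AGE-1 to the kinases PDK-1, AKT-1 and AKT-2. These kinases keep the FOXO transcription factor DAF-16 out of the nucleus, and the lipid phosphatase DAF-18 opposes AGE-1. The pathway is known for its control of dauer entry, L1 arrest, stress resistance and lifespan. TOR kinase, encoded by *let-363*, works with the Raptor homolog DAF-15 and activates the S6 kinase RSKS-1. This branch links nutrients to protein synthesis and ribosome production, and *daf-15* is known as a gene that DAF-16 can repress.

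ATAC-seq, in which the Tn5 transposase inserts adapters into open DNA, was run on nuclei isolated from whole larvae at the L1 stage. There were 16 libraries, 4 for each of 4 strains. Every strain received 1 mM auxin at 23 °C and carried a degron, a tag that lets auxin trigger the breakdown of the tagged protein where the plant receptor TIR1 is present. The undepleted strains, *rpoa-2::degron* and *rrb-1::degron*, had no TIR1 and were collected after 18 h. The depleted strains, *rpoa-2::degron; eft-3p::tir-1* and *rrb-1::degron; eft-3p::tir-1*, expressed TIR1 throughout the body from the *eft-3* promoter and were collected after 24 h. RPOA-2 is a core subunit of the polymerase that transcribes ribosomal RNA, and GRWD-1, which the sample labels give as RRB-1, is a chaperone of large ribosomal subunit assembly. In these comparisons an effect of depletion and effects of the TIR1 transgene, of strain differences or of collection time cannot be told apart. Larvae of a strain were grown together and then split into the 4 replicates, so that p-values measure the spread between these samples, which may be technical. Peaks were measured in whole animals, where fewer cells of a type and less accessibility per cell cannot be told apart.

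The libraries held 2337415 to 13010378 reads in peaks. Levels are given as CPM, the usual depth-scaled count, here relative to the reads in peaks of a library with TMM scaling, and changes as log2 fold changes of depleted over undepleted larvae from edgeR's quasi-likelihood test on all 16 libraries, with 2 computed factors of unwanted variation in the model. A peak was called when its Benjamini-Hochberg adjusted p over all 29131 peaks was under 0.05. The summed levels of muscle, epidermis and pharynx markers overlapped between the groups. After GRWD-1 depletion the log2 fold change was below 0 at 12 of the 13 epidermal marker peaks (median -0.10) and at 7 of the 9 pharyngeal ones (median -0.09), with 0 called and 1 at an unadjusted p under 0.05 in each list by edgeR. After RPOA-2 depletion it was below 0 at 9 of the 13 (median -0.03) and at 5 of the 9 (median -0.01). Of these lists 0 peaks were called, with 1 epidermal and 2 pharyngeal peaks at such a p. The intestinal markers *elt-2* and *elt-7* lay between 19.4 and 30.6 CPM together, and *ges-1* had no peak. The depleted replicate 2 libraries stood apart at neuronal markers: the 5 peaks of *unc-119* and *rab-3*, with no peak at *ric-4*, summed to 255.1 CPM in RPOA-2 depleted replicate 2 and 280.5 CPM in GRWD-1 depleted replicate 2. In the other 14 libraries this sum was between 159.2 and 215.8 CPM. By group it ranged from 165.8 to 183.0 CPM in RPOA-2 undepleted, 176.2 to 255.1 CPM in RPOA-2 depleted, 159.2 to 205.4 CPM in GRWD-1 undepleted and 182.5 to 280.5 CPM in GRWD-1 depleted larvae. Replicate 2 was the highest of each undepleted group as well, by smaller margins. It read 183.0 CPM in RPOA-2 and 205.4 CPM in GRWD-1 undepleted larvae, where the next libraries read 179.2 and 197.2 CPM. In edgeR 0 of the 5 neuronal peaks were called in either depletion, with 2 at an unadjusted p under 0.05 in each. Of all peaks, 12.3% after RPOA-2 and 10.8% after GRWD-1 depletion had such a p. The log2 fold changes of the neuronal peaks were above 0 at 3 of 5 peaks after RPOA-2 depletion (median 0.16) and at 5 of 5 after GRWD-1 depletion (median 0.20).

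After RPOA-2 depletion, 2 of the 67 peaks were called as increased, 1 at *let-363* and 1 upstream of *pdk-1*, and 1 was called as decreased, at *daf-16*. Over all peaks, 1.2% were called as increased and 0.487% as decreased. After GRWD-1 depletion, 1 peak was called as increased, in an intron of *daf-2*, and 0 as decreased, where 0.57% and 0.81% of all peaks were called. The DESeq2 Wald test called 3 peaks after RPOA-2 depletion, those at *daf-16* and *pdk-1* and 1 upstream of *akt-2* that edgeR did not call. After GRWD-1 depletion it called 1, the same *daf-2* peak. It gave no adjusted p at 35 and 29 of the 67, among them the *let-363* peak after RPOA-2 depletion. Over all peaks it called 391 as increased and 171 as decreased after RPOA-2 depletion, and 162 and 229 after GRWD-1 depletion. At an unadjusted p under 0.05, edgeR found 15 peaks (22.4%) after RPOA-2 depletion, 7 higher and 8 lower, beside 12.3% of all peaks. After GRWD-1 depletion it found 10 peaks (14.9%), 2 higher and 8 lower, beside 10.8% of all peaks. Most of these came from 2 genes, and peaks of 1 gene are not replicates. At *daf-16* 5 peaks were lower after RPOA-2 depletion and 6 after GRWD-1 depletion. At *daf-2* 4 and 2 peaks were higher. The log2 fold changes of all 67 peaks lay between -0.50 and 0.65 after RPOA-2 depletion, with a median of -0.07, and between -0.42 and 0.43 after GRWD-1 depletion, with a median of -0.01. They were above 0 at 38.8% of the 67 after RPOA-2 depletion, beside 50.8% of all peaks. After GRWD-1 depletion they were above 0 at 47.8%, beside 51.5% of all peaks. When both depleted replicate 2 libraries were left out, an alternative chosen after the data were seen, edgeR called 0 of the 67 peaks in either depletion, with 7 and 5 peaks at an unadjusted p under 0.05. That fit called 21 increased and 10 decreased peaks of all peaks after RPOA-2 depletion, and 15 and 8 after GRWD-1 depletion, in place of 349 and 142, and 166 and 236. Calls over all peaks also fell when 1 library was left out. Without RPOA-2 depleted replicate 2 they were 17 and 17 after RPOA-2 depletion, and 28 and 59 after GRWD-1 depletion. Without GRWD-1 depleted replicate 2 they were 106 and 88 after GRWD-1 depletion.

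**Figure D1:**
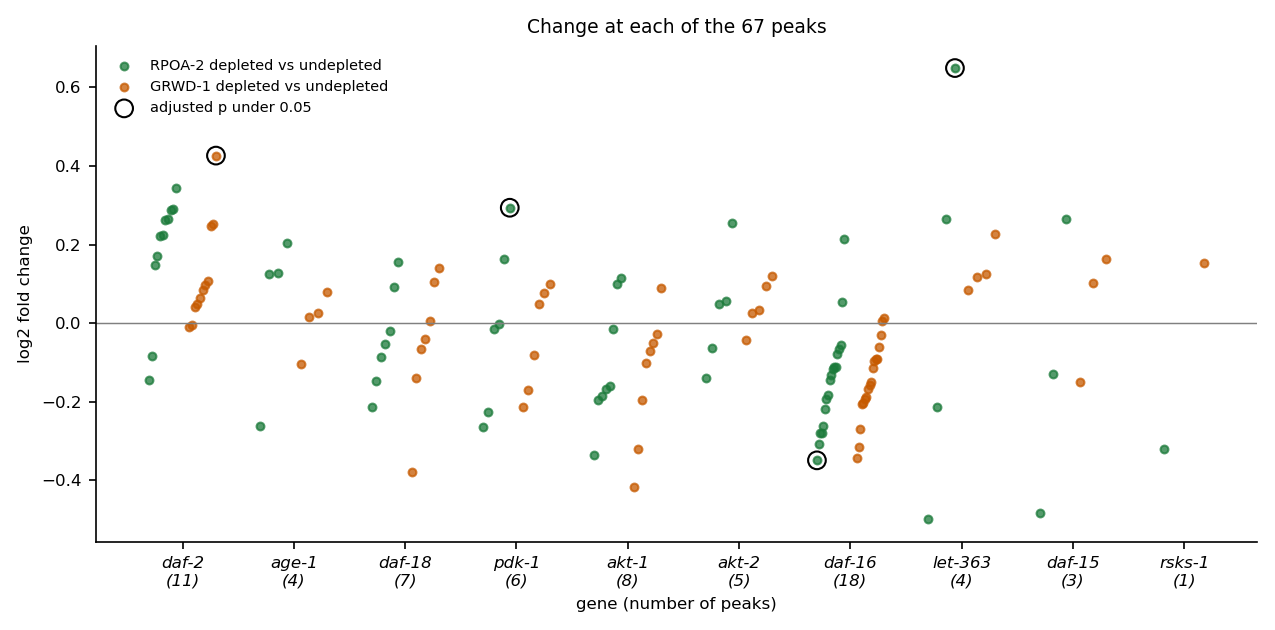
Log2 fold change at each of the 67 peaks, by gene (x axis, number of peaks in brackets), for RPOA-2 depletion in green and GRWD-1 depletion in orange. Black circles mark the 4 called peaks. Most *daf-16* points lie below 0 in both depletions, and 9 of the 11 *daf-2* points lie above 0 in each.

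All 4 libraries of one group lay apart from all 4 of the other at few of the peaks. After RPOA-2 depletion, 1 peak (upstream of *akt-2*) lay above the undepleted libraries and 2 (at *daf-16* and *daf-15*) lay below them, where this held for 2.13% and 2.49% of all peaks. After GRWD-1 depletion, 0 peaks lay above, where 1.76% of all peaks did, and 2, both at *daf-16*, lay below, where 2.12% of all peaks did.

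*daf-2*, the insulin/IGF-1 receptor gene on chromosome III (2994514 to 3040846, minus strand), had a called peak in its introns after GRWD-1 depletion. This peak (3037139 to 3037745), which also overlaps the noncoding RNA gene *linc-143*, read 56.5, 58.7, 54.4 and 47.8 CPM in GRWD-1 undepleted replicates 1 to 4. It read 65.4, 111.9, 70.05 and 52.1 CPM in GRWD-1 depleted replicates 1 to 4. Replicate 2 was far above the other depleted libraries, replicates 1 and 3 were above every undepleted library, and replicate 4 lay within their range. The mean was 54.3 ± 4.73 CPM (SD, n = 4) in undepleted and 74.9 ± 25.8 CPM in depleted larvae, and accessibility increased with a log2 fold change of 0.43 (SE 0.0967, edgeR adjusted p = 0.00553). The neuronal marker sum was also highest in GRWD-1 depleted replicate 2, and its part in this result was not tested. The call was lost without GRWD-1 depleted replicate 2 (log2 fold change 0.35, adjusted p = 0.134 in edgeR), without GRWD-1 undepleted replicate 2 (0.27, adjusted p = 0.378), without RPOA-2 depleted replicate 2 (0.49, adjusted p = 0.146), and without both depleted replicate 2 libraries (0.37, adjusted p = 0.484). With 3 factors in place of 2 the log2 fold change was 0.71 (edgeR adjusted p = 0.0017).

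In RPOA-2 larvae the same *daf-2* intron peak read 49.8, 44.3, 53.7 and 60.1 CPM without depletion and 53.1, 89.2, 52.2 and 60.6 CPM with it. Only replicate 2 of the depleted larvae lay well above the undepleted libraries, and the log2 fold change was 0.22 (edgeR adjusted p = 0.367). The difference between both depletion effects at this peak was -0.20 (SE 0.143, edgeR adjusted p = 0.919).

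The neighbouring intron peak of *daf-2* (3035993 to 3036660), also over *linc-143*, had the highest mean level of the gene, 67.4 CPM. It read 46.4, 55.5, 52.9 and 70.7 CPM in RPOA-2 undepleted larvae and 56.8, 97.4, 51.8 and 86.0 CPM in RPOA-2 depleted larvae. Replicates 2 and 4 of the depleted larvae were above all undepleted libraries and the other replicates were within their range. The log2 fold change of 0.34 did not pass the threshold (SE 0.103, edgeR adjusted p = 0.0655). In GRWD-1 larvae it read 62.0, 69.9, 59.7 and 62.0 CPM without depletion and 62.7, 105.6, 77.1 and 62.5 CPM with it, a log2 fold change of 0.25 (edgeR adjusted p = 0.235).

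Of the annotated 5′ ends of the 7 *daf-2* transcripts, only that of Y55D5A.5d.1 was covered by a peak (3022638 to 3023315). Its means were 33.4 ± 4.83 and 40.0 ± 2.13 CPM (SD, n = 4) in RPOA-2 undepleted and depleted larvae, and 36.3 ± 2.20 and 38.3 ± 1.89 CPM in GRWD-1 larvae. Its log2 fold changes of 0.22 and 0.06 did not pass (edgeR adjusted p = 0.389 and 0.879). Across the gene, 9 of the 11 peaks had a log2 fold change above 0 in each depletion, beside 50.8% and 51.5% of all peaks. Of the 11, 7 lay above 0 in both. Over 29 settings of the model and of the libraries, the number above 0 was between 9 and 10 after RPOA-2 depletion but between 5 and 11 after GRWD-1 depletion, so that only the first direction held throughout.

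*age-1*, the catalytic subunit of phosphoinositide 3-kinase (chromosome II, 11519328 to 11527054, minus strand), had 4 peaks, of which 0 were called. Its most accessible peak, in an intron (11521921 to 11522960), had means of 53.2 ± 2.67 and 56.7 ± 6.29 CPM (SD, n = 4) in RPOA-2 undepleted and depleted larvae and 53.0 ± 6.22 and 54.6 ± 6.56 CPM in GRWD-1 larvae. The libraries of the groups overlapped in both comparisons. *daf-18*, which encodes the phosphatase that reverses the AGE-1 reaction (chromosome IV, 420011 to 425177, minus strand), had 7 peaks, of which 0 were called. Its upstream peak (426107 to 427052), which also overlaps *garr-1*, had means of 62.1 ± 11.3 and 57.3 ± 5.51 CPM in RPOA-2 larvae and 58.9 ± 3.57 and 58.8 ± 2.64 CPM in GRWD-1 larvae, again with overlapping libraries.

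*pdk-1*, the kinase that activates AKT-1 and AKT-2 (chromosome X, 1321344 to 1327986, plus strand), had a called peak upstream of its start after RPOA-2 depletion. This peak (1319369 to 1320569, with its midpoint at -1375 bp from the 5′ end of the gene) read 103.2, 127.8, 108.5 and 112.2 CPM in RPOA-2 undepleted replicates 1 to 4. It read 125.3, 223.2, 121.9 and 128.3 CPM in RPOA-2 depleted replicates 1 to 4. Replicate 2 was far above every other library of the comparison, and the other depleted libraries lay near the highest undepleted one. The means were 113.0 ± 10.6 and 149.7 ± 49.1 CPM (SD, n = 4), and accessibility increased with a log2 fold change of 0.29 (SE 0.0814, edgeR adjusted p = 0.0359). Without RPOA-2 depleted replicate 2 the log2 fold change was 0.07 (edgeR adjusted p = 0.939). Without both depleted replicate 2 libraries it was 0.17 (edgeR adjusted p = 0.835), and 6 of the 16 fits that left out 1 library kept the call. Leaving out either RPOA-2 undepleted replicate 1 (log2 fold change 0.21, edgeR adjusted p = 0.395) or RPOA-2 undepleted replicate 3 (0.14, adjusted p = 0.667) also ended it. The call was further lost without RPOA-2 depleted replicate 3 (edgeR adjusted p = 0.0528), RPOA-2 undepleted replicate 4 (0.155), GRWD-1 depleted replicates 3 (0.160) or 4 (0.0614), and GRWD-1 undepleted replicates 1 (0.128), 2 (0.0755) or 3 (0.0636). When the GRWD-1 comparison supplied the control peaks for the factors, the log2 fold change was 0.06 (edgeR adjusted p = 0.907). The sum of neuronal markers was highest of the RPOA-2 libraries in the same depleted replicate 2, and its part in this result was not tested.

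In GRWD-1 larvae the upstream *pdk-1* peak read 143.1, 154.3, 127.4 and 124.7 CPM without depletion and 128.5, 198.8, 147.0 and 122.5 CPM with it. Replicate 2 was again the highest of each group, the other libraries overlapped, and the log2 fold change was 0.08 (edgeR adjusted p = 0.784). The difference between both depletion effects was 0.22 (SE 0.111, edgeR adjusted p = 0.854). The other 5 peaks of *pdk-1* were not called in either depletion.

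*akt-1* and *akt-2* encode the kinases that phosphorylate DAF-16. The upstream peak of *akt-2* (chromosome X, 14146298 to 14147521) read 70.2, 96.8, 90.7 and 94.7 CPM in RPOA-2 undepleted larvae and 99.1, 123.8, 112.8 and 99.3 CPM in RPOA-2 depleted larvae. All depleted libraries lay above all undepleted ones, but the log2 fold change of 0.26 did not pass the threshold (SE 0.0804, edgeR adjusted p = 0.0863). The DESeq2 Wald test did call it (adjusted p = 0.0265). In GRWD-1 larvae the same peak read 96.4, 122.7, 101.4 and 102.3 CPM without depletion and 87.7, 152.3, 121.7 and 113.5 CPM with it, which overlap. The other 4 peaks of *akt-2* and all 8 peaks of *akt-1* were not called in either depletion. The most accessible *akt-1* peak, upstream (chromosome V, 10247607 to 10248290), had means of 37.2 ± 2.02 and 34.1 ± 8.06 CPM (SD, n = 4) in RPOA-2 larvae and 37.8 ± 6.26 and 38.2 ± 8.79 CPM in GRWD-1 larvae.

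**Figure D2:**
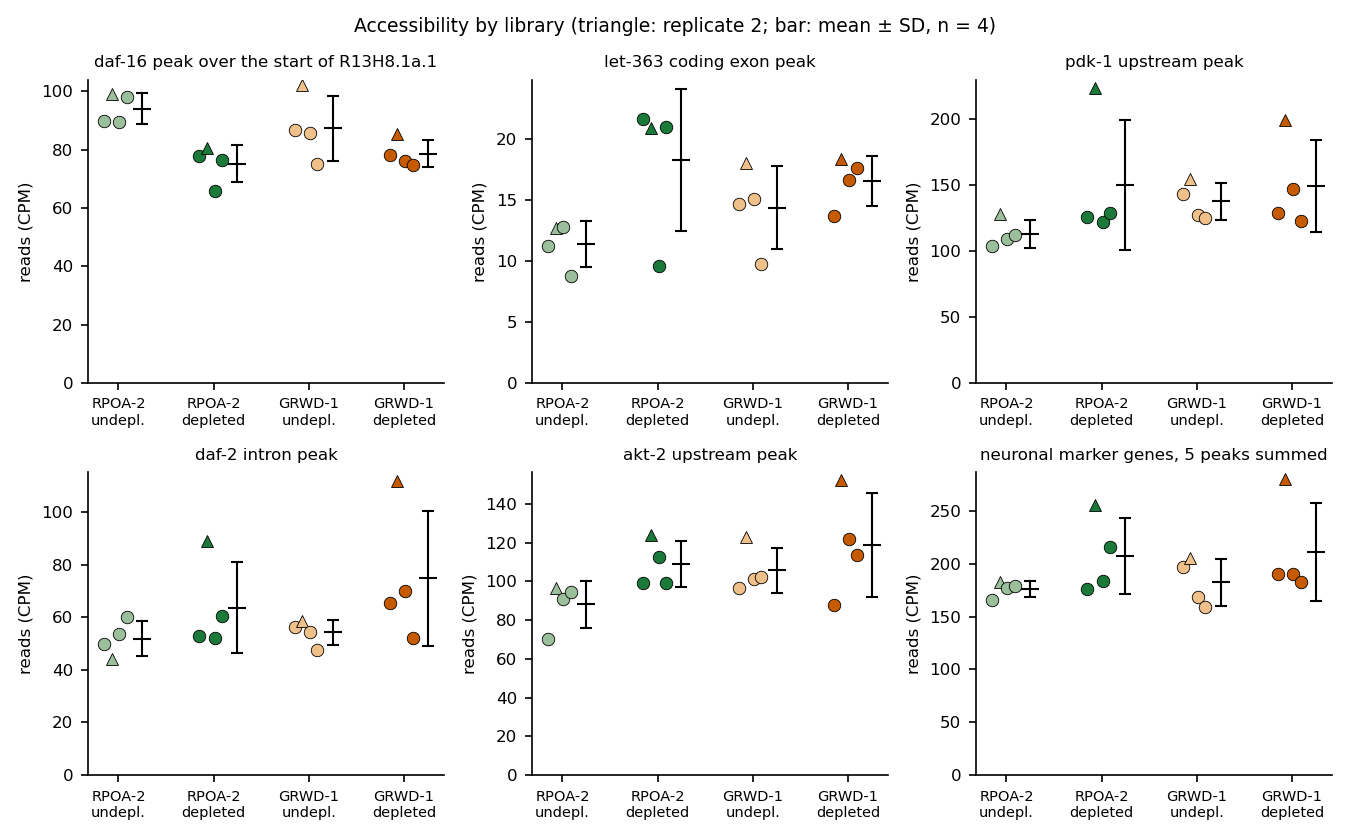
CPM (y axis) in each library of the 4 groups (x axis) at the called peaks of *daf-16*, *let-363*, *pdk-1* and *daf-2*, at the upstream peak of *akt-2*, and summed over the 5 peaks of the neuronal markers. Triangles are replicate 2 and bars give the mean ± SD of 4 libraries. At *pdk-1*, replicate 2 of the RPOA-2 depleted larvae read 223.2 CPM and the other replicates read 121.9 to 128.3 CPM.

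*daf-16*, the FOXO transcription factor gene at the end of the pathway (chromosome I, 10750498 to 10776703, plus strand, 11 transcripts), was the most densely covered of the 10 genes, with 58.0% of its body and upstream window inside peaks. The called peak (10771253 to 10772677) lies over the 5′ end of transcript R13H8.1a.1 and a coding exon. It read 89.7, 99.1, 89.6 and 98.1 CPM in RPOA-2 undepleted replicates 1 to 4. It read 77.9, 80.5, 66.0 and 76.4 CPM in RPOA-2 depleted replicates 1 to 4. Every depleted library was below every undepleted one. The means were 94.2 ± 5.18 and 75.2 ± 6.36 CPM (SD, n = 4), and accessibility fell by 0.35 on the log2 scale (SE 0.0842, edgeR adjusted p = 0.0101), which is 21.5% lower. The fall was as large without RPOA-2 depleted replicate 2 (log2 fold change -0.37), but the call was lost without it (edgeR adjusted p = 0.457), without RPOA-2 depleted replicate 3 (-0.32, 0.0657), without RPOA-2 undepleted replicate 2 (-0.33, 0.0577) and without RPOA-2 undepleted replicate 4 (-0.32, 0.0785). Without both depleted replicate 2 libraries the log2 fold change was -0.30 (edgeR adjusted p = 0.665). The fit without RPOA-2 depleted replicate 2 called 17 increased and 17 decreased of all peaks after RPOA-2 depletion, in place of 349 and 142.

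In GRWD-1 larvae the same *daf-16* peak read 86.7, 102.1, 85.8 and 75.0 CPM without depletion and 78.3, 85.3, 76.3 and 74.7 CPM with it. The groups overlapped, and the log2 fold change of -0.17 did not pass (SE 0.0787, edgeR adjusted p = 0.399). The difference between both depletion effects was -0.18 (SE 0.115, edgeR adjusted p = 0.901). Another coding exon peak of the gene (10765239 to 10766206) read 70.2, 77.8, 65.9 and 74.1 CPM in GRWD-1 undepleted larvae and 59.7, 63.0, 58.2 and 58.6 CPM in GRWD-1 depleted larvae. Here every depleted library was below every undepleted one, with a log2 fold change of -0.27 that did not pass (SE 0.0845, edgeR adjusted p = 0.0956). The intron peak at 10758721 to 10759908 was the other *daf-16* peak whose GRWD-1 groups did not overlap, at 62.6, 66.1, 65.5 and 77.0 CPM without depletion and 61.1, 60.1, 61.0 and 58.9 CPM with it.

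The most accessible peak of all 10 genes was in an intron of *daf-16* (10768519 to 10770356, also over R13H8.5), with a mean of 247.5 CPM, or 134.7 CPM per kb of peak, where the 67 peaks ranged down to 37.5 CPM per kb. It read 216.5, 257.3, 233.5 and 252.9 CPM in RPOA-2 undepleted and 217.0, 338.8, 185.4 and 224.2 CPM in RPOA-2 depleted larvae. The depleted libraries lay on both sides of the undepleted ones, with replicate 2 highest. The peak over the 5′ ends of transcripts R13H8.1b.1 and R13H8.1c.1 (10762720 to 10763502) had means of 47.2 ± 6.29 and 44.5 ± 5.66 CPM (SD, n = 4) in RPOA-2 larvae and 44.3 ± 1.62 and 43.1 ± 3.19 CPM in GRWD-1 larvae. These differences were within the spread between replicates.

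Along *daf-16*, 16 of the 18 peaks had a log2 fold change below 0 after RPOA-2 depletion and 16 after GRWD-1 depletion, with 14 below 0 in both. The medians were -0.14 and -0.15, and peaks of 1 gene share their libraries and are not replicates. Of all peaks, 50.8% after RPOA-2 and 51.5% after GRWD-1 depletion had a log2 fold change above 0. Most epidermal and pharyngeal marker peaks also lay below 0 after GRWD-1 depletion. After RPOA-2 depletion 9 of 13 epidermal and 5 of 9 pharyngeal ones did. The part of these tissues in the *daf-16* values of either depletion was not tested. Over 29 settings between 14 and 18 peaks lay below 0 after RPOA-2 depletion and between 15 and 18 after GRWD-1 depletion. At an unadjusted p under 0.05, 5 and 6 peaks were lower and 0 were higher.

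**Figure D3:**
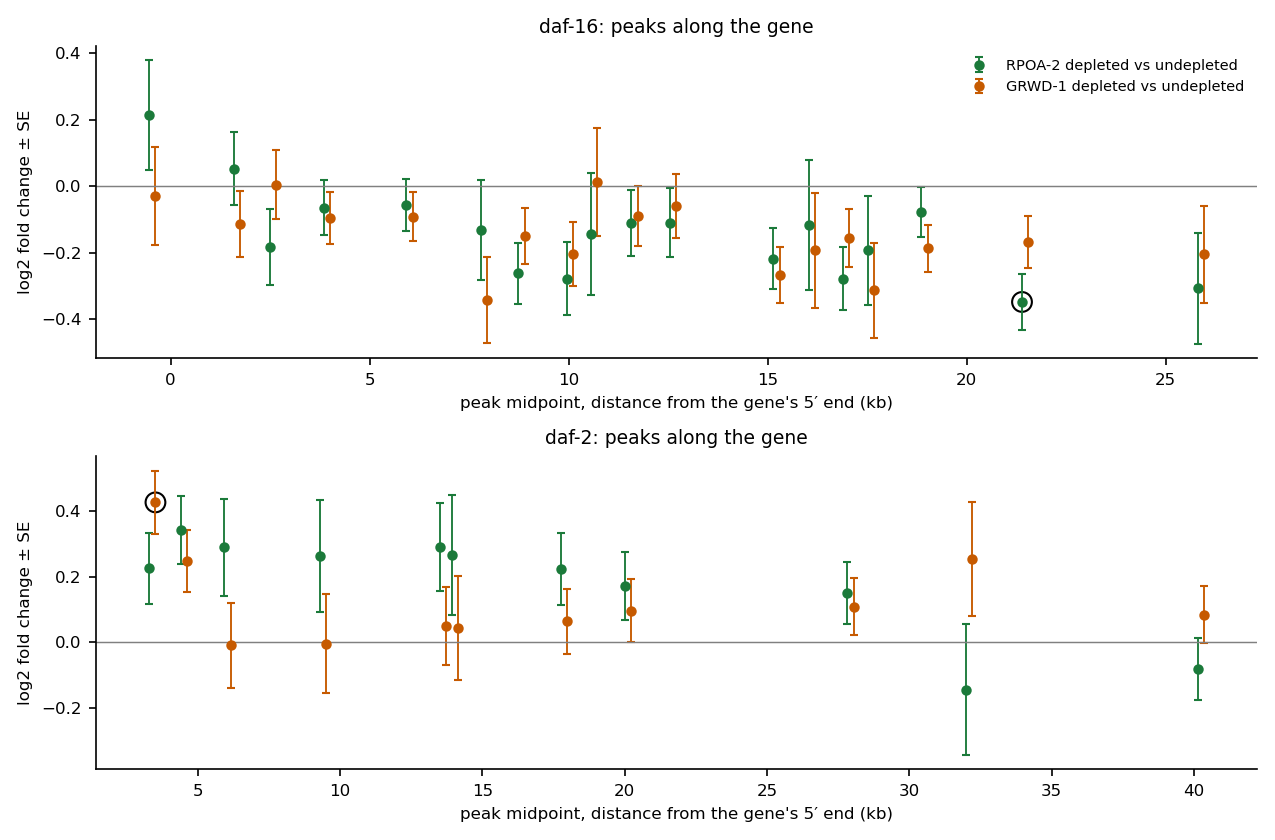
Log2 fold change ± SE (y axis) of each peak of *daf-16* (top) and *daf-2* (bottom) against the distance of its midpoint from the 5′ end of the gene in kb (x axis). Green is RPOA-2 and orange GRWD-1 depletion, and black circles mark called peaks. The called *daf-16* peak lies 21467 bp and the called *daf-2* peak 3404 bp into the gene.

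*let-363*, which encodes TOR kinase (chromosome I, 5245743 to 5263424, plus strand), had 4 small peaks, all over coding exons, that covered 3.90% of its window. The peak at 5261492 to 5261730 read 11.2, 12.7, 12.8 and 8.75 CPM in RPOA-2 undepleted replicates 1 to 4. It read 21.7, 20.9, 9.61 and 21.0 CPM in RPOA-2 depleted replicates 1 to 4. The depleted larvae were well above the undepleted ones in 3 of 4 libraries, and replicate 3 lay among the undepleted libraries. The means were 11.4 ± 1.88 and 18.3 ± 5.79 CPM (SD, n = 4), and accessibility increased with a log2 fold change of 0.65 (SE 0.168, edgeR adjusted p = 0.0200). Between 23 and 200 reads were counted in this peak per library, the thinnest support of the 4 called peaks. DESeq2 gave it no adjusted p. Of the 16 fits that left out 1 library, 8 kept the call, and without RPOA-2 depleted replicate 2 the log2 fold change was 0.48 (edgeR adjusted p = 0.666).

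The call was also lost without RPOA-2 depleted replicates 1 (edgeR adjusted p = 0.0675) and 4 (0.103), without RPOA-2 undepleted replicates 1 (0.206), 3 (0.171) and 4 (0.105), and without GRWD-1 depleted replicate 3 (0.0561) or GRWD-1 undepleted replicate 1 (0.0517). Without both depleted replicate 2 libraries the log2 fold change at the *let-363* peak was 0.65 (edgeR adjusted p = 0.541). In GRWD-1 larvae it read 14.6, 18.0, 15.1 and 9.745 CPM without depletion and 13.7, 18.4, 16.6 and 17.6 CPM with it. These groups overlapped, with a log2 fold change of 0.12 (edgeR adjusted p = 0.828). The other 3 peaks of the gene were not called in either depletion.

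*daf-15*, which encodes the Raptor subunit of the TOR complex (chromosome IV, 9386208 to 9394979, plus strand), had 3 peaks over coding exons. The most accessible (9388674 to 9388884) read 14.4, 10.6, 15.2 and 10.7 CPM in RPOA-2 undepleted and 10.5, 9.27, 5.43 and 9.11 CPM in RPOA-2 depleted larvae. Every depleted library was below every undepleted one, some by a small margin, and the log2 fold change of -0.48 did not pass (SE 0.185, edgeR adjusted p = 0.204). In GRWD-1 larvae its log2 fold change was -0.15 (edgeR adjusted p = 0.800).

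*rsks-1*, the S6 kinase downstream of TOR (chromosome III, 11245120 to 11252281, plus strand), had 1 peak (11248330 to 11248923, coding exon). It read 35.0, 27.8, 37.0 and 36.9 CPM in RPOA-2 undepleted and 28.3, 28.1, 20.0 and 25.4 CPM in RPOA-2 depleted larvae. Undepleted replicate 2 lay within the depleted range and the other undepleted libraries above it, and the log2 fold change was -0.32 (SE 0.124, edgeR adjusted p = 0.216). In GRWD-1 larvae it read 27.1, 24.8, 29.7 and 37.7 CPM without depletion and 33.1, 29.5, 30.1 and 37.7 CPM with it, a log2 fold change of 0.15 (edgeR adjusted p = 0.667). The difference between both depletion effects, -0.47 (SE 0.167), had the smallest unadjusted p of the 67 peaks in that test, and its adjusted p was 0.696 in edgeR.

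Reads were also summed over the peaks of each gene and tested across the 20675 genes with a peak. In this table a peak near several genes counts for each, so its CPM are lower than those of the peaks. Of the 10 genes, 0 were called after RPOA-2 depletion and 0 after GRWD-1 depletion, beside 4.3% and 3.82% of all genes in edgeR. At an unadjusted p under 0.05, edgeR found 5 of the 10 genes after RPOA-2 depletion, beside 16.7% of all genes, and 2 after GRWD-1 depletion, beside 15.9%. DESeq2 was not run on the sums. After RPOA-2 depletion *daf-2*, *pdk-1* and *akt-2* were higher and *daf-16* and *rsks-1* lower. After GRWD-1 depletion *daf-2* was higher and *daf-16* lower. Without both depleted replicate 2 libraries, 0 of the 10 genes had such a p in either depletion. Without RPOA-2 depleted replicate 2 alone, 1 gene did in each. The sum over *daf-2* read 200.013, 185.5, 175.5 and 191.1 CPM in RPOA-2 undepleted and 200.9, 225.9, 201.8 and 225.6 CPM in RPOA-2 depleted larvae. It read 202.4, 188.7, 196.2 and 186.7 CPM in GRWD-1 undepleted and 208.7, 238.4, 213.5 and 208.4 CPM in GRWD-1 depleted larvae. Depleted libraries lay above all undepleted ones in both comparisons, which held for 2.54% and 1.94% of all genes. The log2 fold changes of 0.17 and 0.16 did not pass (edgeR adjusted p = 0.0838 and 0.101).

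The sum over *daf-16* read 521.5, 580.8, 525.5 and 534.4 CPM in RPOA-2 undepleted and 484.4, 592.8, 453.8 and 486.1 CPM in RPOA-2 depleted larvae. The depleted replicates other than 2 lay below all undepleted libraries and replicate 2 above them. It read 565.2, 639.0, 525.5 and 544.4 CPM in GRWD-1 undepleted and 498.5, 572.1, 509.0 and 489.9 CPM in GRWD-1 depleted larvae, where again only replicate 2 of the depleted larvae reached the undepleted range. The log2 fold changes were -0.14 (SE 0.0466, edgeR adjusted p = 0.0777) and -0.15 (SE 0.0458, edgeR adjusted p = 0.0654). For the other 8 genes the log2 fold change of the sum lay between -0.33 at *rsks-1* and 0.17 at *let-363* after RPOA-2 depletion, and between -0.11 at *akt-1* and 0.15 at *rsks-1* after GRWD-1 depletion.

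**Figure D4:**
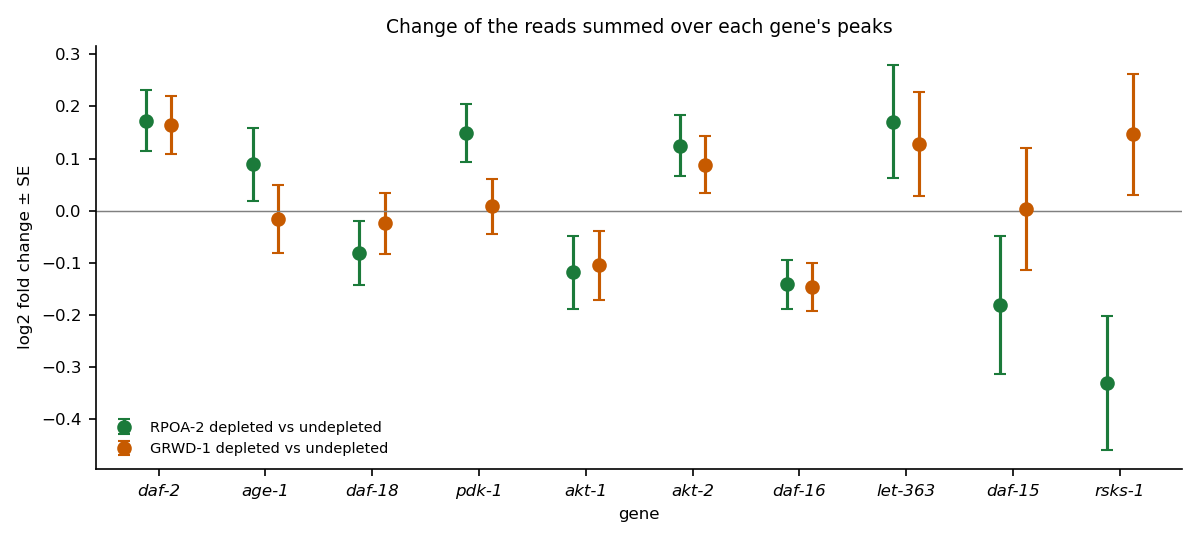
Log2 fold change ± SE (y axis) of the reads summed over the peaks of each gene (x axis), for RPOA-2 depletion in green and GRWD-1 depletion in orange. *daf-2* lies at 0.17 and 0.16 and *daf-16* at -0.14 and -0.15, and 0 of the 10 genes passed the threshold.

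Depleted RPOA-2 larvae were also compared with depleted GRWD-1 larvae. Of the 67 peaks 0 were called, beside 0.13% of all peaks. The unadjusted p was under 0.05 at 2 of them in edgeR, at *daf-15* and *rsks-1* (2.99%, beside 7.09% of all peaks). DESeq2 called 0, but gave no adjusted p at 60 of the 67 peaks. Between the undepleted strains 0 were called beside 0.00343% of all peaks, with 3 at an unadjusted p under 0.05 in edgeR (4.48%, beside 4.06% of all peaks), and 0 by DESeq2. In the test of the difference between both depletion effects 0 were called beside 0.0103% of all peaks, with 4 at an unadjusted p under 0.05 in edgeR (5.97%, beside 5.80% of all peaks), and 0 by DESeq2. No called peak was therefore shown to respond differently to both depletions.

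Other genes of both branches and targets of DAF-16 were described for context. Of 16 further insulin pathway genes, 14 had peaks, 43 in all, and 0 were called in either depletion by edgeR, with 10 and 4 at an unadjusted p under 0.05 after RPOA-2 and GRWD-1 depletion. As above, 12.3% and 10.8% of all peaks had such a p. Of 22 further TOR pathway genes, 20 had 84 peaks, with 15 at an unadjusted p under 0.05 in each depletion. After RPOA-2 depletion 2 of the 84 were called as decreased, beside 0.487% of all peaks. Both were at *hlh-30*, which encodes the TFEB homolog that controls autophagy genes. The larger fall of the pair (chromosome IV, 4017687 to 4019418) was from 121.5, 126.9, 122.1 and 127.8 CPM to 92.3, 97.0, 93.1 and 100.8 CPM, with no overlap and a log2 fold change of -0.39 (SE 0.0788, edgeR adjusted p = 0.00113). After GRWD-1 depletion 2 of the 84 were called as increased, beside 0.57% of all peaks. The first was at another place in *hlh-30* (4023995 to 4025225, log2 fold change 0.36, edgeR adjusted p = 0.00169). It read 107.3, 133.1, 99.8 and 98.4 CPM in GRWD-1 undepleted and 126.7, 186.8, 141.7 and 118.6 CPM in GRWD-1 depleted larvae. The groups overlapped, and replicate 2 was the highest of each. The called *hlh-30* peaks were not called in the other depletion, which by itself shows no difference between the depletions. In the test of that difference 0.0103% of all peaks were called. The second increased peak was at *par-4*, the LKB1 homolog that activates AMPK (log2 fold change 0.58, edgeR adjusted p = 0.0481). Of 14 DAF-16 targets, 9 had 22 peaks, with 8 at an unadjusted p under 0.05 after RPOA-2 depletion. The peak over *icl-1*, an enzyme of the glyoxylate cycle, was called as decreased after RPOA-2 depletion (chromosome V, 722838 to 728443). It read 740.1, 1209, 1075 and 1078 CPM in RPOA-2 undepleted and 689.8, 849.9, 781.8 and 596.5 CPM in RPOA-2 depleted larvae. The groups overlapped through undepleted replicate 1, and the log2 fold change was -0.51 (SE 0.0709, edgeR adjusted p = 1.84e-07). After GRWD-1 depletion, 0 of the 22 peaks were called by edgeR, with 7 at an unadjusted p under 0.05.

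**Figure D5:**
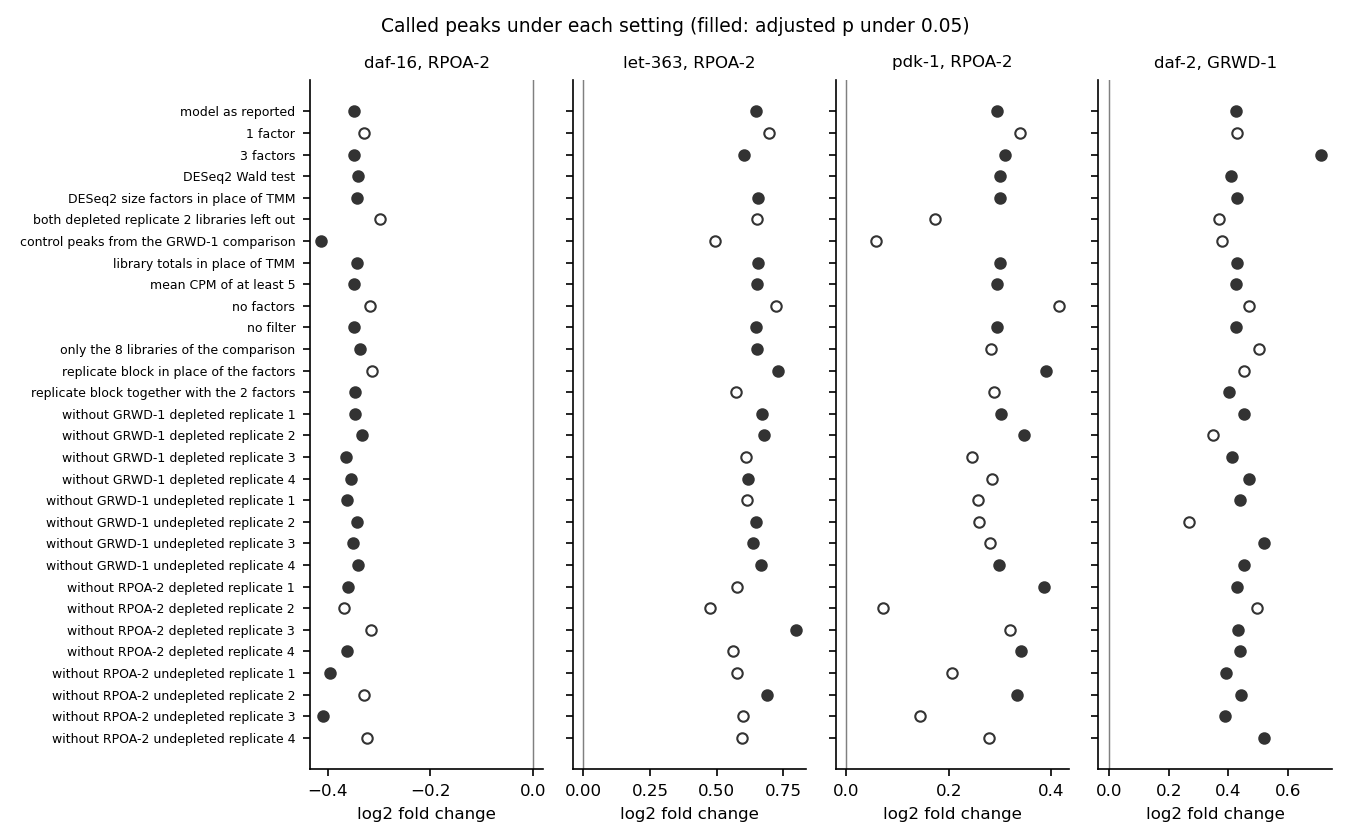
Log2 fold change (x axis) of the called peaks of *daf-16*, *let-363* and *pdk-1* after RPOA-2 depletion and of *daf-2* after GRWD-1 depletion under each setting of the model (y axis), including each library left out in turn. Filled points have an adjusted p under 0.05. The direction was the same under every setting drawn, and the *daf-16* peak kept its call in 12 and the *pdk-1* peak in 6 of the 16 fits without 1 library.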

How the data were processed

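The deposited values are whole-number read counts in 29131 merged peaks for 16 libraries, without normalization. To make them, the authors used fastp for trimming, bowtie 2 for alignment to WBcel235, MACS2 for peaks of each library after mitochondrial and low-quality alignments had been dropped, and Homer for merging these peaks. Duplicate-marked reads were ignored by featureCounts 2.0.1. The quasi-likelihood functions glmQLFit and glmQLFTest of edgeR 4.0.16 in R 4.3.3 were applied to the counts with TMM scaling, and filterByExpr removed 0 peaks. The model held 4 genotypes and 2 factors of unwanted variation, computed as RUVg does from 13897 control peaks, those whose adjusted p in the RPOA-2 comparison was 0.75 or more by DESeq2 1.42.0. The SE of a change was its absolute log2 value divided by the square root of F. Libraries of 1 strain differed by more than counting error (chi-square per degree of freedom 1.87 to 11.8 over 24 pairs), and the common biological coefficient of variation was 8.14%. Named peaks are those called, the most accessible of each gene, the member with the smallest p in each depletion, and those over 5′ ends of *daf-16* and *daf-2*. Others were named after their values were seen. Genes, lists and alternatives were chosen with earlier results of these data known. The fit was tested on simulated data. Motif counts were not run, since the genome sequence was not used here. The labels state that 1 replicate of each strain was processed in each of 4 batches, and do not say that replicate numbers mark them.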

Additional observations from a re-analysis of the deposited data

Results flagged for a closer look

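In 7 of 96 groups of 4 libraries tested, 1 library lay far from the others, where chance marks about 1 in 20. RPOA-2 depleted replicate 2 read 223.2 CPM at the *pdk-1* upstream peak, and the other replicates read 121.9 to 128.3 CPM. RPOA-2 depleted replicate 3 read 9.61 CPM at the *let-363* peak, below the others at 20.9 to 21.7 CPM. GRWD-1 depleted replicate 2 had a *daf-2* sum of 238.4 CPM, above the others at 208.4 to 213.5 CPM. RPOA-2 undepleted replicate 2 read 56.5 CPM at the *daf-16* peak over R13H8.1b.1, above the others at 43.0 to 45.3 CPM. On the lower scale of the summed reads, its *akt-1* sum was 70.3 CPM, above the others at 62.2 to 63.5 CPM. Its *rsks-1* sum on that scale was 14.2 CPM, below the others at 18.3 to 18.9 CPM. RPOA-2 undepleted replicate 1 had an *akt-2* sum of 71.2 CPM, below the others at 84.0 to 85.8 CPM.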

How the results depend on the processing

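The 3 peaks called after RPOA-2 depletion became 0 with no factors or 1 factor, 0 without both depleted replicate 2 libraries, 1 with control peaks from the GRWD-1 comparison, and 5 at an adjusted p of 0.1. The 1 peak called after GRWD-1 depletion became 0 with no factors or 1 factor, 0 with those control peaks, 0 in the fit of only its 8 libraries, 0 without both depleted replicate 2 libraries, and 2 at an adjusted p of 0.1. Calls over all 29131 peaks fell too. After RPOA-2 depletion they were 19 increased and 15 decreased (no factors), 87 and 46 (1 factor), and 56 and 74 (those control peaks). After GRWD-1 depletion they were 15 and 25, 62 and 98, and 107 and 175, with 17 and 36 in the fit of 8 libraries. Where edgeR called 0, an unadjusted p under 0.05 was found at 10 and 14 peaks (RPOA-2, no factors and 1 factor), and at 6, 8, 10 and 5 peaks (GRWD-1, no factors, 1 factor, control peaks, 8 libraries). DESeq2 was run only with the 2 factors and called 3 and 1, with the upstream *akt-2* peak in place of the *let-363* peak. Leaving out 1 library gave 0 to 5 calls after RPOA-2 depletion (0 without RPOA-2 depleted replicate 2 or RPOA-2 undepleted replicate 4, with 12 and 14 at an unadjusted p under 0.05, and 5 without GRWD-1 depleted replicate 2) and 0 to 1 after GRWD-1 depletion (0 without replicate 2 of GRWD-1 depleted, GRWD-1 undepleted or RPOA-2 depleted larvae, with 7, 8 and 7). A replicate block in place of the factors gave 2 calls and 0 calls (7 at an unadjusted p under 0.05), with edgeR adjusted p of 0.0678 at the *daf-16* peak and 0.0590 at the *daf-2* peak, and a replicate block together with the 2 factors gave 1 and 1. Over all peaks, the block in place of the factors called 425 increased and 94 decreased (RPOA-2) and 86 and 112 (GRWD-1). The block together with the factors called 202 and 102, and 142 and 207. Deviations of same-numbered libraries correlated at r = -0.019 to 0.42, over 0.1 in 4 of 8 pairs, and those of differently numbered ones at -0.40 to 0.12. Since not every pair passed 0.1, the numbers were not taken as pairs. Yet the second factor of the model followed the replicate number in all 4 strains. It was -0.37 to -0.13 in replicates 1 and 2, and 0.0093 to 0.43 in replicates 3 and 4. Whether the numbers mark the processing batches was not tested. Summed reads gave 2 called genes with library totals in place of TMM, *daf-2* and *pdk-1*, and 0 to 2 (RPOA-2) and 0 to 1 (GRWD-1) without 1 library. The 4 called peaks kept their direction under all settings run, and the cause of the lost calls was not tested. Other filters, gene windows and scalings left the peak counts within 1.5 times. Yet the called *pdk-1* peak lies outside a window of 500 bp upstream, and its midpoint, at -1375 bp, lies outside the 1 kb window. Under either of these rules it is not a member, and its call is lost from the set. The shallowest library, 2337415 reads, limits small peaks such as those of *let-363*.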
